A study of Mus musculus with 3 samples.

Results

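The collagen genes of KO-actin cells were taken as every gene whose mouse symbol has the form Col, a type number, the letter a and a chain number, which chose 44 of the 46603 genes counted. The rule used names alone and no measured value, but it was set with earlier results of these data known. The KO-actin line was derived from MEFs, fibroblasts of mouse embryos, that lack their own β-actin and express in its place a β-actin bearing a nuclear localization signal (NLS), a tag that directs a protein to the nucleus. These cells had been made for earlier work, and whether they are 1 clone is not given in the sources used here. RNA-Seq counts of polyA RNA came from 3 libraries of this single genotype, replicates 1 to 3, with no treatment named. All 3 libraries share both the knockout and the NLS-tagged β-actin, and β-actin KO and wild-type libraries were not analysed here. The values therefore describe collagen levels in KO-actin cells and give no change against another genotype. The labels do not say whether the libraries came from separate cultures, so a p-value measures only the spread between these libraries, which may be technical.

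The cells made Col1a1 RNA at a level among the highest of all genes, 4057 ± 237 CPM (the count of a gene over the library total, per 1000000; SD, n = 3), whereas Col1a2, which encodes the partner chain of type I collagen, had 20.98 ± 1.49 CPM. Col1a2 was nevertheless not silent, since 991, 1124 and 907 counts were assigned to it in replicates 1, 2 and 3. The partner chains compared in types IV, V and VI were closer to each other than Col1a1 and Col1a2 were. Those of type VIII were not, with Col8a1 at 460 times Col8a2 per kilobase of exon and Col1a1 at 366 times Col1a2. Pairs with a chain of too few counts were left out of this comparison. Among these, Col11a2 had 245, 206 and 172 counts and Col11a1 0, 1 and 0. Col4a5, with at least 8795 counts in every library, was not paired with Col4a3 or Col4a4, which had at most 7.

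Collagens are secreted proteins in which 3 alpha chains, identical or different, wind into a helix rich in glycine and proline. Chains are made in the endoplasmic reticulum, hydroxylated, glycosylated and folded there with dedicated chaperones, then trimmed outside the cell and assembled into fibrils or networks. Type I, the main fibrillar collagen of connective tissue, is usually a trimer of 2 Col1a1 chains and 1 Col1a2 chain, and a trimer of Col1a1 chains alone also exists. Fibroblasts are known as the main producers of types I, III, V and VI, while type IV forms the sheet of basement membranes.

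Of the 44 collagen genes, 28 (63.6%) had more than 3 counts in every library, against 32.6% of all genes in the files and 58.9% of the protein-coding genes, so the share of collagen genes detected was close to that of protein-coding genes. This floor of 3 counts is as far as a true level may lie above an observed 0, by counting error, and it equals 0.0601, 0.0605 and 0.0676 CPM in replicates 1, 2 and 3, whose totals were 49932446, 49587453 and 44383636 counts. At least 1 CPM was reached in every library by 23 collagen genes, and 13 had a mean of at least 100 CPM. Collagen genes took 0.832%, 0.878% and 0.821% of the counts of the libraries, which made 0.844% on average, and 0.435%, 0.445% and 0.434% when Col1a1 was set aside.

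No count at all was seen in any library for 5 genes, Col6a5, Col6a6, Col9a1, Col13a1 and Col19a1. A further 8 genes had 3 counts or fewer in every library, namely Col4a4, Col6a4, Col9a2, Col10a1, Col11a1, Col22a1, Col24a1 and Col26a1. Another 3 genes passed 3 counts in some libraries only. These were Col4a3 with 3, 7 and 2 counts, Col28a1 with 8, 1 and 2, and Col25a1 with 0, 2 and 4. These 16 genes thus lay at or below the floor of 3 counts in at least 1 library, although some of them had a count in every library.

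Levels of different genes were compared as CPM per kilobase, with the union of annotated exons as the length. The mean level of the 28 detected genes spanned 23252-fold. Col1a1 alone made 50.7 ± 1.01% (SD, n = 3) of the collagen CPM per kb, Col4a1 13.2 ± 0.509%, Col4a2 9.29 ± 0.197% and Col6a1 7.23 ± 0.208%, so that these 4 genes together made 80.5 ± 0.484%. By class, fibrillar collagens made 58.4 ± 0.851% with 9 of 11 genes detected, and the network-forming types IV, VIII and X made 27.5 ± 0.947% with 6 of 9. The group of types VI, VII, XXVI and XXVIII made 10.04 ± 0.243% with 4 of 9 detected, the fibril-associated collagens 2.17 ± 0.0677% with 5 of 9, the multiplexins 1.86 ± 0.0248% with 2 of 2 and the transmembrane collagens 0.0268 ± 0.00185% with 2 of 4. In the order of the 28 levels, 7 of the 27 neighbouring pairs overlapped between libraries, among them Col5a2 with Col3a1 and Col18a1 with Col6a2.

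**Figure D1:**
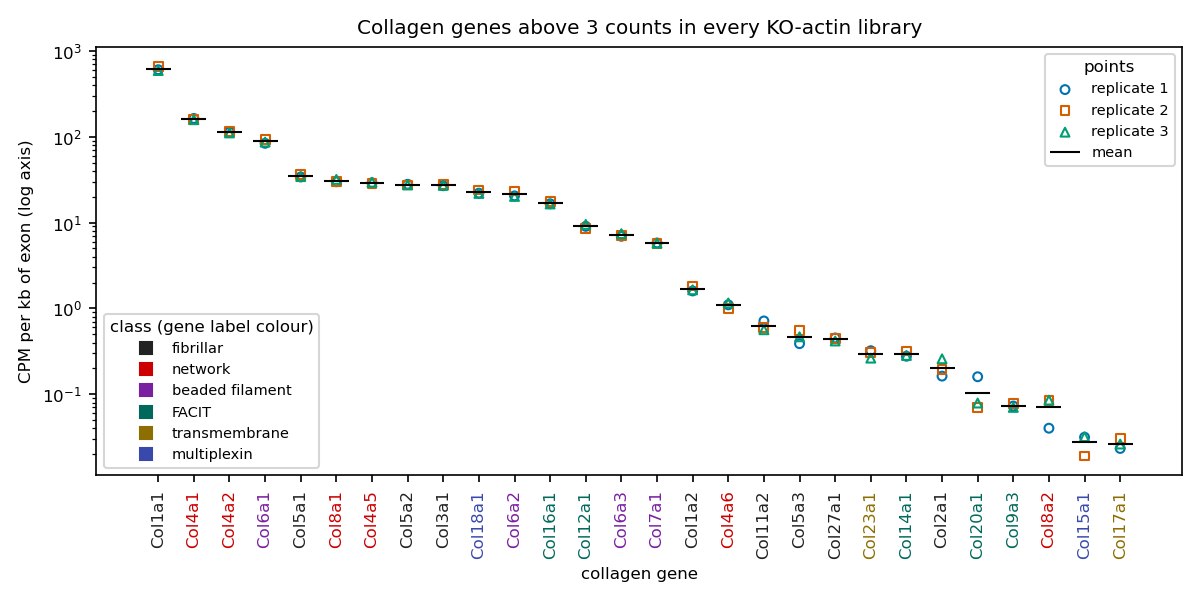
Level of each collagen gene with more than 3 counts in every library, in CPM per kb of exon on a log axis. Each library has 1 point, coloured by replicate, a black tick marks the mean, and the gene names are coloured by class. Col1a1 stands alone at the top near 618 CPM per kb, Col4a1 and Col4a2 follow above 100, and Col1a2 lies at 1.69, 16th in the order.

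Col1a1 (ENSMUSG00000001506) lies on the plus strand of chr11:94936224-94953042 (GRCm38). Counts of 198065, 214513 and 172118 were assigned to it, which gave 604, 659 and 591 CPM per kb, a mean of 618 ± 36.1. It ranked 8th of all genes by CPM, and 99.8% of the detected protein-coding genes were lower per kb. Replicate 2 was the highest and the other two were close to each other.

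Col1a2 (ENSMUSG00000029661) lies on the plus strand of chr6:4504814-4541544 (GRCm38). Its 991, 1124 and 907 counts corresponded to 1.60, 1.82 and 1.64 CPM per kb, a mean of 1.69 ± 0.120. As for Col1a1, replicate 2 was the highest, but no library came near the Col1a1 level. Of the detected protein-coding genes, 25.9% were lower per kb than Col1a2, and of all protein-coding genes 56.4% were lower. By the counts assigned to it, Col1a2 thus lay in the lower part of the detected range. Gene counts do not show which of its exons the reads came from. None of the 50-base windows of the longest transcript of Col1a1 or of Col1a2 occurs in a transcript of another gene. Exon sequence outside these longest transcripts was not searched in this way. The exons of both genes overlap no exon of another gene.

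Within a library, the level of Col1a1 per kb was 378 times that of Col1a2 in replicate 1, with an exact Clopper-Pearson 95% interval of 356 to 403. The ratio was 361 (341 to 383) in replicate 2 and 359 (337 to 384) in replicate 3. The 3 intervals overlap. Its geometric mean was 366, or 8.52 ± 0.04 on the log2 scale (SD, n = 3), and Col1a2 stood at 0.273% of Col1a1. The union of Col1a2 exons measures 12.4 kb, while its longest transcript measures 5.35 kb, and with the longest transcripts as lengths the ratio was 174. It was 183 with coding lengths and 193 with no length.

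The sequence before the annotated start of Col1a2 is shown because this gene is a low partner of the most abundant collagen gene. That of Col3a1 is shown because Col3a1 is a fibrillar gene at a level between those of Col1a1 and Col1a2. Both come from RefSeq promoter windows on GRCm38.p6, which hold 250 bases before and 50 after the start, and only the stretch outside annotated exons is printed, 5′ to 3′ on the plus strand, chr6:4505370-4505492 for Col1a2 and chr1:45311288-45311537 for Col3a1. Capitals mark matches on either strand to CCAAT, to the GC-rich motif GGGCGG or to the TATA-box letters TATAAA.
Col1a2: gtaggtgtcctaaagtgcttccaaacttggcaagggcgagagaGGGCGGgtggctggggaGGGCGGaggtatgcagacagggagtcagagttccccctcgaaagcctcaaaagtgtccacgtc
Col3a1: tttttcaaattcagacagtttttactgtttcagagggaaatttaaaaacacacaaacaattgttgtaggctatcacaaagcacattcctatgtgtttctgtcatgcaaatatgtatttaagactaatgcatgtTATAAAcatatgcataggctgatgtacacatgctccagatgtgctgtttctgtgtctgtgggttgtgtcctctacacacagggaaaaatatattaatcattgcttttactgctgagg
In the whole Col1a2 window, GGGCGG began at bases -205 and -188 and CCAAT at base -109 before the start, counted with -1 as the last base before it, and ATTGG, the other strand of CCAAT, began at base 1. The RefSeq start lies inside the gene as GENCODE annotates it, downstream of the first annotated exon. The Col3a1 window held TATAAA at base -117 and neither of the other motifs. It also held 0 CG dinucleotides, against 13 for Col1a2, and 62.1% of all windows had fewer CG than Col1a2. No match overlapped another. Among 32851 windows of the same length, CCAAT occurred in 37.4%, GGGCGG in 35.7% and TATAAA in 13.6%. Among the 38 windows found for 35 of the 44 collagen genes, CCAAT occurred in 34.2%, GGGCGG in 60.5% and TATAAA in 13.2%. The match of letters is a description and does not show that a factor bound there. No window was found for Col1a1, Col2a1, Col4a3, Col5a2, Col9a3, Col12a1, Col14a1, Col22a1 or Col26a1.

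The surroundings of Col1a2 on chromosome 6 held both detected and undetected genes. The 4 annotated genes nearest on the side before it were Gm37883, Gm2522, Gm24442 and Gm44380, the nearest of them 20.6 kb away. They had no count except Gm44380 with 1, 1 and 0. On the other side, Gm18289 and Gm26696 had no count, Gm44432 had 7, 0 and 4, and Casd1, which encodes a sialic acid acetyltransferase 59.3 kb away, had 1329, 1302 and 1292. Gm43921, which lies within the span of Col1a2 and shares no exon with it, had 3, 5 and 0 counts. Most of these annotations are pseudogenes or unproven transcripts, so the nearest 3 protein-coding genes on each side were added after values had been seen. These lie far off, with Bet1, Gng11 and Gngt1 418 to 507 kb away on the side before Col1a2. Casd1, Sgce and Peg10 lie 59.3 to 206 kb away on the other side. Casd1 had 27.3 ± 1.55 CPM, the imprinted genes Sgce and Peg10 had 18.5 ± 0.862 and 39.9 ± 2.26, Bet1 had 19.9 ± 0.951 and Gng11 12.4 ± 1.07, while Gngt1 had no count. Without a length correction, Col1a2 with 20.98 CPM thus lay inside the range of the 5 detected neighbours. Per kb its mean was below that of each of them, the closest being Sgce with 1.74 ± 0.0812, whose libraries overlap those of Col1a2.

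**Figure D2:**
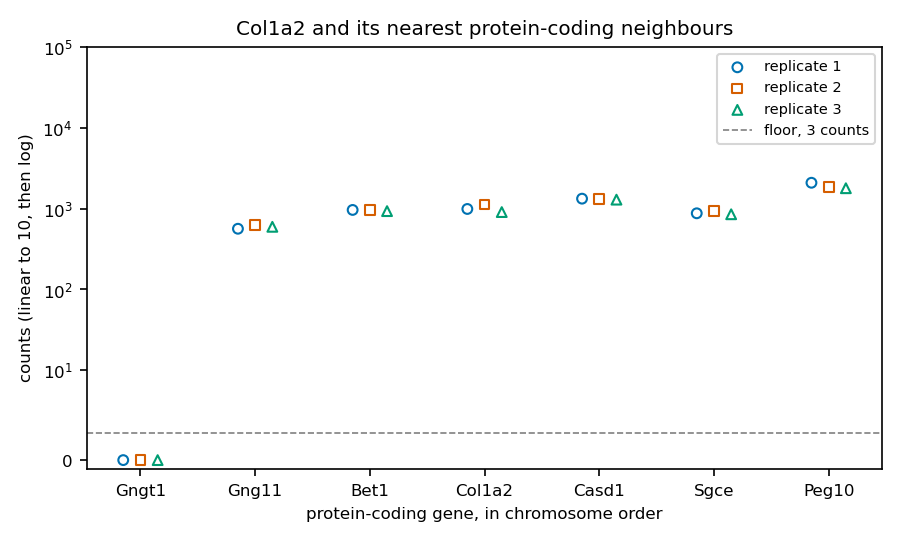
Counts of Col1a2 and of the nearest 3 protein-coding genes on each side, in chromosome order, with 1 point per library. The count axis is linear at its low end and log above, and a dashed line marks the floor of 3 counts. Col1a2 lies within the range of counts of the 5 detected neighbours, and Gngt1 had no count.

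Type III collagen is a trimer of Col3a1 chains that forms fibrils with type I. Col3a1 (chr1:45311538-45349706, plus strand) had 26.9, 27.9 and 27.1 CPM per kb, a mean of 27.3 ± 0.537. The values lay close together in the 3 libraries. Col3a1 was 9th among the collagen genes by this measure and 5th with the longest transcripts as lengths. Col1a1 exceeded Col3a1 22.5, 23.6 and 21.8-fold in replicates 1, 2 and 3, a geometric mean of 22.6, which became 14.2 with the longest transcripts. Col3a1 was thus lower than Col1a1 but higher than Col1a2 in every library.

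Type V collagen, which is known to start and regulate type I fibrils, is commonly built of 2 Col5a1 chains and 1 Col5a2 chain. Col5a1 (chr2:27886425-28039514, plus strand) had 34.0, 36.2 and 34.3 CPM per kb, a mean of 34.8 ± 1.16. Col5a2 (chr1:45374321-45503282, minus strand), which lies tail to tail with Col3a1 at 24.6 kb from it, had 27.9, 27.4 and 27.4, a mean of 27.6 ± 0.295. Col5a1 lay above Col5a2 in every library by this measure, with ratios of 1.22, 1.32 and 1.25 and a geometric mean of 1.26. The order depended on the length, since the ratio was 0.880 with the longest transcripts and 0.910 with coding lengths. It is therefore not settled which of the chains had the higher level, but both stayed within a narrow range of each other. Col5a3, an alternative chain of type V (chr9:20770050-20815067, minus strand), had 132, 187 and 141 counts, or 0.388, 0.554 and 0.467 CPM per kb. It was lower than Col5a1 in every library, with Col5a1 87.6, 65.3 and 73.6 times higher, so Col5a3 stood at 1.33% of Col5a1.

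The other fibrillar genes were low or not detected. Col11a2 had 0.627 ± 0.0776 CPM per kb and its partner Col11a1 0, 1 and 0 counts. Col27a1 had 0.439 CPM per kb and Col2a1, the main collagen of cartilage, 0.204, while Col24a1 was among the undetected genes. Col2a1 varied between libraries, with 75, 88 and 106 counts.

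Type IV, the collagen of basement membranes, has 6 chains encoded by pairs of genes that lie head to head. Col4a1 (chr8:11198423-11312826, minus strand) had 163, 161 and 158 CPM per kb, a mean of 161 ± 2.58. Col4a2 (chr8:11312805-11449287, plus strand) had 113, 115 and 111, a mean of 113 ± 2.19. Both were among the 4 highest collagen genes and varied little. Their annotated spans overlap by 22 bases and their RefSeq windows by 78. The Col4a1 window held 37 CG dinucleotides and the Col4a2 window 33, more than in 94.4% and 91.4% of all windows, and both held CCAAT and GGGCGG matches. These windows consist mostly of annotated exon and are not printed.

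The usual trimer of these genes contains 2 Col4a1 chains and 1 Col4a2 chain. The Col4a1 level per kb exceeded that of Col4a2 1.44, 1.39 and 1.43-fold in replicates 1, 2 and 3. The exact Clopper-Pearson 95% intervals were 1.43 to 1.46, 1.38 to 1.41 and 1.41 to 1.45, so replicates 1 and 2 differed slightly beyond counting error. The geometric mean was 1.42, which corresponds to 0.51 ± 0.03 on the log2 scale. It was 1.56 with the longest transcripts, 1.64 with coding lengths and 1.60 with no length.

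Of the chains on chromosome X, Col4a5 (chrX:141475385-141689234, plus strand) had 29.1, 28.7 and 29.5 CPM per kb, a mean of 29.1 ± 0.418. Col4a6 (chrX:141165403-141474076, minus strand) had 438, 398 and 409 counts, or 1.10, 1.01 and 1.16 CPM per kb, a mean of 1.09 ± 0.0754. The groups of values lay far apart, although the genes lie head to head with their starts 1309 bases apart. Col4a5 was 26.4, 28.5 and 25.5 times higher than Col4a6, a geometric mean of 26.8, and Col4a6 stood at 3.73% of Col4a5. The sequences before both starts are shown because the levels of this pair differ where those of Col4a1 and Col4a2 are close. They come from RefSeq on GRCm38.p6, chrX:141475169-141475384 on the plus strand for Col4a5 and chrX:141474077-141474326 on the minus strand for Col4a6, each 5′ to 3′ in the direction of its gene, with the same capitals as above.
Col4a5: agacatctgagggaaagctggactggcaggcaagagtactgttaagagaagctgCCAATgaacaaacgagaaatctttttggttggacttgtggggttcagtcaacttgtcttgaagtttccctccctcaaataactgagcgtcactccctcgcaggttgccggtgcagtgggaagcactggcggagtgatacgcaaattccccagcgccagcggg
Col4a6: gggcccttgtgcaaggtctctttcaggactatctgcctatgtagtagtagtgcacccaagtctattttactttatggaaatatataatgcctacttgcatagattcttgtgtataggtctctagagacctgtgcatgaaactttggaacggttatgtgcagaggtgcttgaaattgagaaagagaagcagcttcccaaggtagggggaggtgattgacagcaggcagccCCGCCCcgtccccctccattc
In the whole window, Col4a5 held CCAAT at base -196 and GGGCGG at base -30, with 11 CG dinucleotides. Col4a6 held CCGCCC, the other strand of GGGCGG, at base -21, with 3 CG dinucleotides. The Col4a6 window had fewer CG than the median of 7 over all windows, and the Col4a5 window had more. Both lay below the median of 11.5 over the collagen windows. Whether the CG content of a window goes with the level of its gene was not tested.

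The remaining type IV pair, Col4a3 and Col4a4, lies head to head on chromosome 1 with the starts 72 bases apart, and neither gene passed 3 counts in every library. Col4a3 and Col4a4 are known to assemble with Col4a5. Col4a5 was thus detected at 5.53-fold below Col4a1, while the chains of its best-known partners were not detected or, for Col4a6, low.

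Type VI collagen forms beaded filaments from Col6a1, Col6a2 and Col6a3 chains in equal number. Col6a1 (chr10:76708792-76726168, minus strand) had 83.8, 93.8 and 86.7 CPM per kb, a mean of 88.1 ± 5.12. Col6a2 (chr10:76595762-76623630, minus strand), which lies 85.2 kb from Col6a1, had 20.5, 23.3 and 20.2, a mean of 21.3 ± 1.73. Col6a3 (chr1:90765923-90843971, minus strand) had 6.93, 7.04 and 7.43, a mean of 7.13 ± 0.264. The 3 genes did not overlap in any library, with Col6a1 first and Col6a3 last.

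Col6a1 exceeded Col6a2 4.09, 4.02 and 4.30-fold, a geometric mean of 4.14, and exceeded Col6a3 12.1, 13.3 and 11.7-fold, a mean of 12.3. Col6a2 exceeded Col6a3 2.96, 3.31 and 2.71-fold, a mean of 2.98. The order of the 3 chains was the same with each length used, but the sizes were not. With coding lengths Col6a1 exceeded Col6a2 2.19-fold, and Col6a2 exceeded Col6a3 6.60-fold. The chains Col6a4, Col6a5 and Col6a6, which can replace Col6a3 and lie next to each other on chromosome 9, had 2 counts between them in all libraries together.

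Type VIII collagen forms short-chain networks from Col8a1 and Col8a2. Col8a1 (chr16:57624258-57754737, minus strand) had 29.9, 30.0 and 31.8 CPM per kb, a mean of 30.6 ± 1.10. Col8a2 had 9, 19 and 17 counts. Col8a1 was 744 times higher in replicate 1, with an exact Clopper-Pearson 95% interval of 392 to 1628, 351 times in replicate 2 (225 to 583) and 373 times in replicate 3 (233 to 641). The 3 intervals overlap and are wide, with at most 19 counts of Col8a2 in a library. The geometric mean was 460, and it was 681 with the longest transcripts, 754 with coding lengths and 803 with no length. The geometric mean was above that of Col1a1 to Col1a2 under each of these lengths, although in replicate 2 the ratio per kb of exon was below it, 351 against 361.

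Type XII is a trimer of Col12a1 chains that associates with type I fibrils. Col12a1 (chr9:79598991-79718831, minus strand) had 9.03, 8.58 and 9.52 CPM per kb, a mean of 9.04 ± 0.468. Replicate 3 was the highest, unlike for Col1a1. Among the other detected genes, Col18a1 (chr10:77052178-77166548, minus strand), a basement membrane collagen whose end fragment is endostatin, had 22.01, 23.95 and 21.86 CPM per kb. Col16a1 had a mean of 16.9 ± 0.637, and Col7a1, the collagen of anchoring fibrils, had 5.76 ± 0.0200. Lower levels, between Col23a1 with 0.297 CPM per kb and Col17a1 with 7, 9 and 7 counts, were found for Col23a1, Col14a1, Col20a1, Col9a3, Col15a1 and Col17a1.

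Of 15 listed pairs of chains, 11 had both chains above 3 counts in every library. In each of these 11 pairs the first chain was the higher in 3 of 3 libraries per kb of exon, although Col5a1 and Col5a2 changed places with the longest transcripts and with coding lengths. An exact two-sided sign-flip permutation test over the libraries gave p = 0.25 for each pair and an adjusted p of 0.25 (Benjamini-Hochberg over the 11 pairs), and 0.25 is the smallest p that 3 libraries allow, so no pair could reach 0.05. The 4 pairs left out were Col4a3 with Col4a4, Col9a1 with Col9a2, Col9a2 with Col9a3, and Col11a1 with Col11a2.

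**Figure D3:**
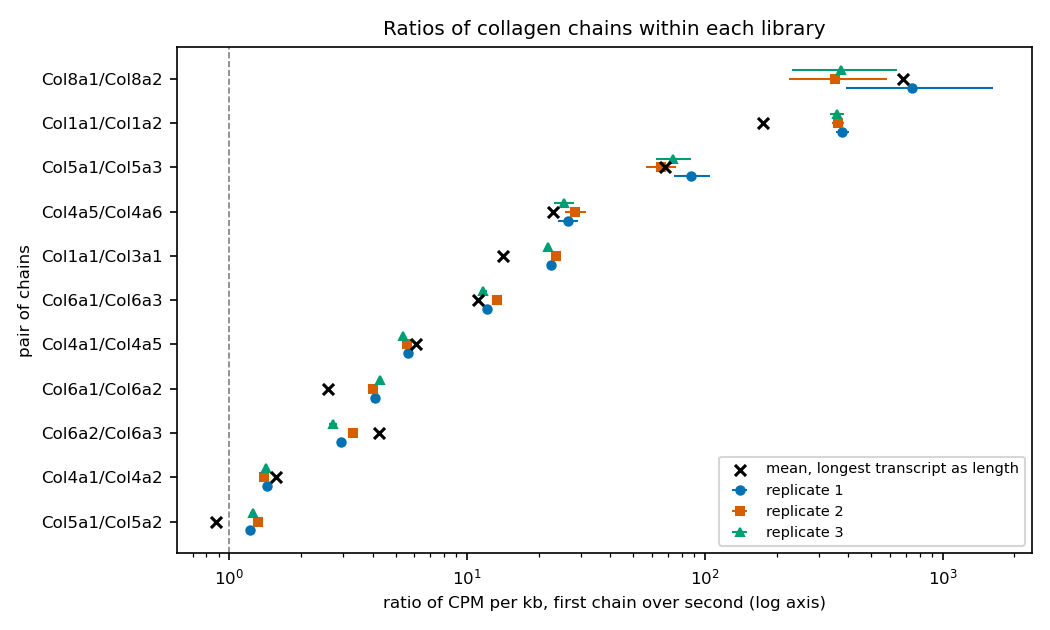
Ratio of the levels of partner chains within each library, in CPM per kb on a log axis, with 1 point per library and exact 95% intervals, and a cross for the ratio with the longest transcripts as lengths. The pairs Col4a1/Col4a2 and Col5a1/Col5a2 lie near 1.42 and 1.26, while Col1a1/Col1a2 and Col8a1/Col8a2 lie at 366 and 460.

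To ask whether a gene differed among the libraries, its 3 counts were set against the library totals in a chi-square test (2 degrees of freedom, Benjamini-Hochberg adjustment over the 13814 genes that reached 10 counts in each library). It compares libraries and not conditions. Of the 25 collagen genes tested, 16 (64.0%) varied beyond counting error, against 43.9% of all genes tested. Where each library held 100 counts or more, 14 of 20 collagen genes varied, against 52.0% of all genes. The differences were small. A ratio above 1.5 between the highest and the lowest library was seen for 2 of the 16 only, namely Col2a1 with 1.59-fold and Col20a1 with 2.26-fold. The median coefficient of variation of the 28 detected genes was 5.80%.

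Replicate 2 stood apart from the others across all genes, since the chi-square over its degrees of freedom was 11.1 against replicate 1 and 10.5 against replicate 3, and 3.70 between replicates 1 and 3. Of the 16 varying collagen genes, 10 were highest in replicate 2, Col1a1, Col1a2, Col3a1, Col6a1 and Col6a2 among them, 4 in replicate 3 and 2 in replicate 1. How many of all varying genes were highest in replicate 2 was not counted. The 10 are therefore not read as particular to collagen genes. Without replicate 2, 7 of the 25 genes varied, against 12.1% of all genes tested. The median log2 ratio of replicate 2 to the mean of the others was 0.04 over the 25 collagen genes and -0.01 over all genes tested. The median GC content of their longest transcripts was 56.7%, against 49.9% over all genes tested. The 14 collagen genes higher in replicate 2 had a median GC content of 58.5% and the 11 lower ones 54.5%. The part of GC content in the difference was not tested.

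**Figure D4:**
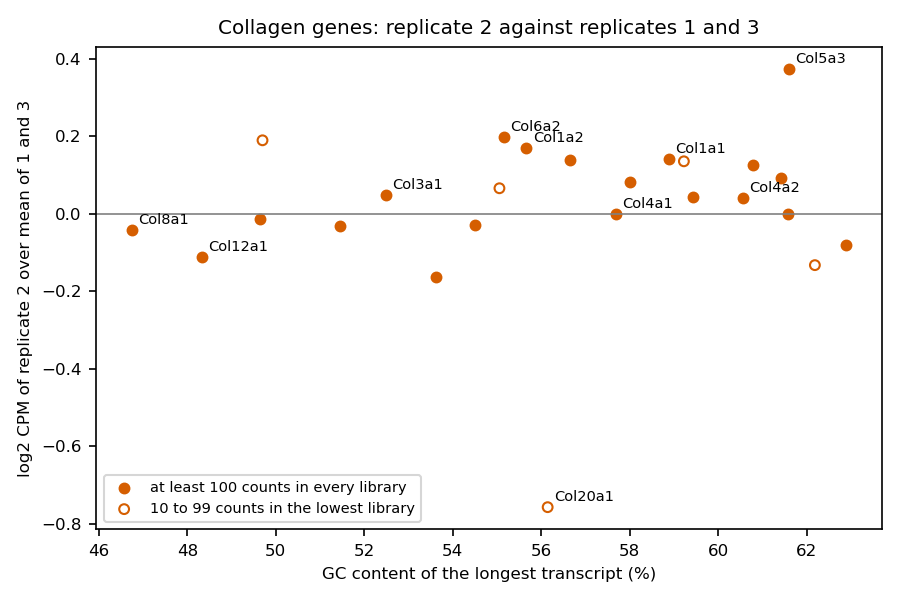
Log2 ratio of the CPM in replicate 2 to the mean CPM of replicates 1 and 3, against the GC content of the longest transcript in percent, for the 25 collagen genes that reached 10 counts in each library. Open points have fewer than 100 counts in the lowest library, Col20a1 among them as the lowest point, while Col5a3 is the highest.

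Genes that modify, fold, traffic and trim collagen chains were taken as a list of 28. Of these, 24 had more than 3 counts in every library, against 58.9% of all protein-coding genes. The median level over all 28 was 16.6 CPM per kb. The highest were Serpinh1, the collagen chaperone HSP47, with 440 ± 21.4 CPM per kb, P4hb, the beta subunit of prolyl 4-hydroxylase and a protein disulfide isomerase, with 403 ± 7.25, and Pcolce, an enhancer of the protease that removes the C-propeptide, with 157 ± 10.6. These 3 genes were at the level of Col1a1 and Col4a1 rather than of Col1a2. The lowest detected were the prolyl 3-hydroxylase genes P3h2 with 3.37 ± 0.424 and P3h3 with 1.18 ± 0.264, and Adamts14, an N-propeptide protease, with 0.868 ± 0.0772. Not above 3 counts were the galactosyltransferase gene Colgalt2 with 3, 1 and 0 counts, the protease gene Adamts3 with 1, 1 and 0, and Tll1 and Tll2 with none. The related genes Colgalt1, Adamts2 and Bmp1 were detected in every library.

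Of 18 genes known for acting on type I collagen genes or their RNA, 16 were detected, against 58.9% of all protein-coding genes. The median level over all 18 was 13.4 CPM per kb. The highest were Ybx1, a protein that binds DNA and RNA, with 638 ± 32.1 CPM per kb, Cebpb, a transcription factor, with 35.7 ± 4.56, and Creb3l1, a transcription factor released from the endoplasmic reticulum, with 26.6 ± 2.41. The lowest detected were Rfx1 with 6.06 ± 0.504 and Rfx5 with 3.10 ± 0.136, which belong to the RFX family of DNA-binding proteins, and Larp6, which binds a stem-loop of type I collagen mRNAs, with 0.877 ± 0.0288. The transcription factor gene Fli1 had 0, 1 and 0 counts and Ciita, the class II transactivator, 5, 2 and 8. Of 8 collagen receptor genes, 7 were detected, against the same 58.9% of protein-coding genes. Itgb1, the integrin subunit shared by all collagen-binding integrins, had 203 ± 10.7 CPM per kb, the receptor kinase gene Ddr1 46.6 ± 2.57 and the uptake receptor gene Mrc2 18.2 ± 0.639. The alpha subunits that pair with Itgb1 were lower, with 6.32 ± 0.459 for Itga11, 0.688 ± 0.0347 for Itga1, 0.165 ± 0.0457 for Itga10, and 6, 9 and 3 counts for Itga2. By the test of variation between libraries, 17 of 24 biosynthesis genes, 8 of 16 regulators and 5 of 7 receptors varied, against the 43.9% of all genes given above.

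**Figure D5:**
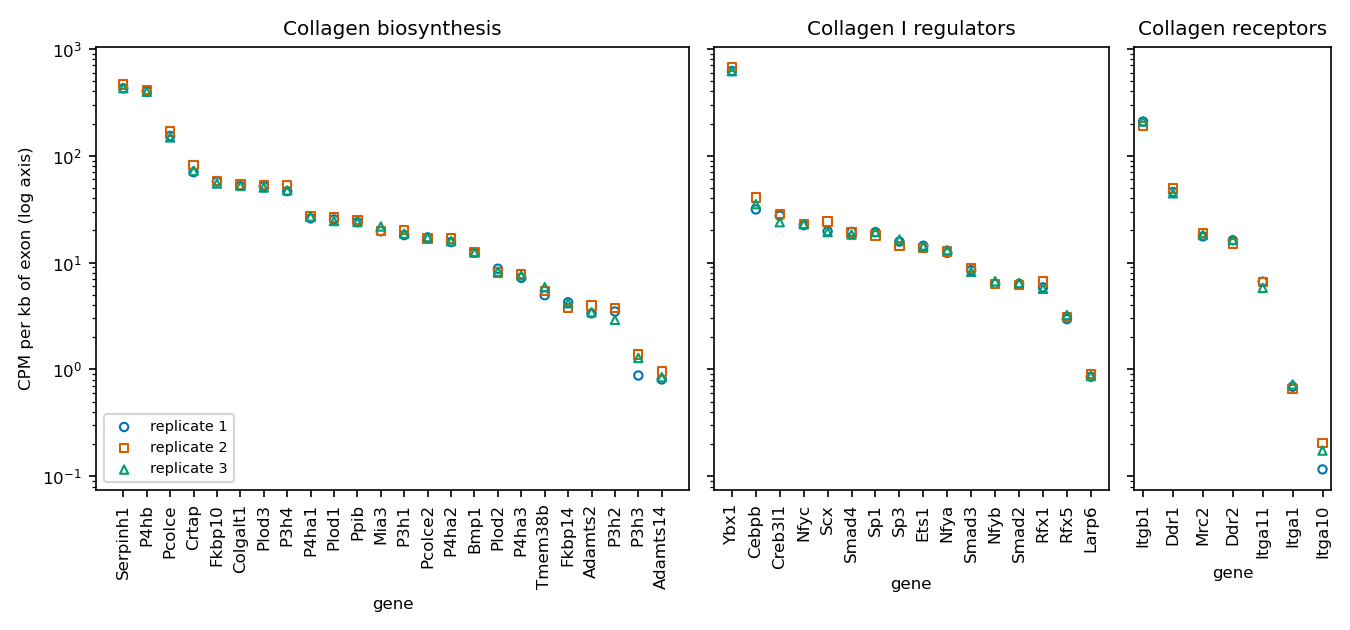
Levels of the genes for collagen biosynthesis, of regulators of type I collagen and of collagen receptors that had more than 3 counts in every library, in CPM per kb of exon on a log axis, with 1 point per library. Serpinh1, P4hb and Ybx1 lie above 400 CPM per kb, and Itga10 is the lowest at 0.165.

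Actb, the gene knocked out and expressed again, had 1078, 1107 and 1070 CPM, and gene counts cannot separate the tagged RNA from any made by the locus itself. Of 10 fibroblast markers, 8 were above 3 counts in every library, against 58.9% of all protein-coding genes. The summed level of the 10 was 8091 to 8471 CPM. Nearly all of it came from Vim with 4562 CPM and Fn1 with 3578. Pdgfrb had 125 CPM, S100a4 31.2 and Twist1 19.6. Lower still, Pdgfra had 4.97 CPM, Thy1 0.837, Dcn 8, 8 and 6 counts, Fap 0, 0 and 1, and Lum none. Smooth muscle markers, led by Acta2, summed to 7696 to 7795 CPM with 5 of 6 above 3 counts and Myh11 at 3, 7 and 6. The sums were 15.1 to 17.2 CPM for chondrocyte markers (3 of 6), 50.5 to 55.5 for osteoblast markers (2 of 6), 38.3 to 40.2 for epithelial markers (2 of 5) and 7.25 to 10.3 for blood markers (1 of 4). They came mostly from Sox9 with 12.8 CPM, Runx2 with 52.0, Krt18 with 37.9 and Cd68 with 8.57. The other markers of these lists above 3 counts in every library were Matn3 with 2.68 CPM, Comp with 0.65, Alpl with 0.77 and Krt8 with 1.48. Acan, Bglap, Epcam and Ptprc of the same lists had 2 counts or fewer in every library. Endothelial markers summed to 2.03 to 2.54 CPM (2 of 5), mostly Kdr. In bulk RNA, fewer cells making a collagen and less RNA per cell cannot be told apart.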

How the data were processed

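For each of the 3 libraries the deposited values are unnormalized read counts by Ensembl gene. Per the submitters' processing notes, Trimmomatic, FastQC, HISAT2 and HTSeq were used on mm10 (GRCm38). Versions, annotation and strand setting are not given in the sources used here, and the handling of reads that match several genes can change the counts of similar genes. Symbols were matched by identifier for 46005 of 46603 genes. CPM used library totals, and exon lengths came from GENCODE M21. Detection meant more than 3 counts in every library; floors and intervals cover counting error only. The collagen members, chain pairs, lists and tests were chosen with earlier results of these data known. Values per library were given for detected chains of types I, III, IV, V, VI and XII and for the 10 highest collagen genes; companion genes were named if among the highest or lowest 3 of their list or not detected. Alternatives were TMM (edgeR 4.0.16) and DESeq2 1.42.0 size factors, other count minimums, other lengths and leaving out each replicate. Python 3.11.15, pandas 2.3.3, scipy 1.17.1 and R 4.3.3 were used. The result of 1 marker list is not reported here.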

Additional observations from a re-analysis of the deposited data

How the results depend on the processing

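No paired analysis was possible because all libraries belong to 1 condition. The order of Col5a1 and Col5a2 was the only one of 11 chain orders to turn, with ratios of 0.880 by longest transcripts and 0.910 by coding lengths. Of 33 ratios under another length, 11 moved by more than 1.5 times, in the pairs Col1a1/Col1a2, Col1a1/Col3a1, Col6a1/Col6a2, Col6a1/Col6a3, Col6a2/Col6a3 and Col8a1/Col8a2, and leaving out 1 library moved no ratio by more than 1.27 times. With the longest transcripts, 6 of 28 mean levels moved by more than 1.5 times, Col1a2 the most at 2.32-fold. TMM scaling changed no level by more than 0.0961%. Collagen genes made 0.424% of all CPM per kb in place of 0.844% of counts. Between 7 and 13 collagen genes varied when 1 replicate was left out, the lowest without replicate 2, in place of 16. Detection gave 25 genes at 10 counts and 23 at 1 CPM. Annotation of long or extra exons and 3 libraries of 1 condition limit the levels per kb and the tests.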
